A study of Homo sapiens with 32 samples.

Results

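Genes whose symbols carry 7 prefixes of the solute carrier (SLC) families that move amino acids, SLC1A, SLC3A, SLC6A, SLC7A, SLC36A, SLC38A and SLC43A, were read from arrays of K-562 cells, a human chronic myeloid leukemia cell line. By symbol, 2 of the 14884 genes measured met this rule: SLC38A12 and SLC7A11-AS1, each with 1 array feature. A gene is called measured here and below if a feature carried its symbol. Of 53617 features, 37519 were unnamed here, and whether these read further genes of the rule, lists or neighbourhoods was not examined. SLC38A12 is protein coding, lies on chromosome 17 and had the earlier symbol TMEM104. SLC7A11-AS1 lies on chromosome 4 and is a long noncoding RNA, so it is not a carrier, and its symbol marks it as antisense to a gene of the SLC7A family. The other carriers of these families are not analysed here, and the results below describe these 2 genes and not amino acid carriers as a class.

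The 32 arrays formed 4 groups, each of 8 arrays. Cells resistant to 0.5 µM imatinib gave low-imatinib lines 1 and 2, cells resistant to 2 µM imatinib gave high-imatinib lines 1 and 2, cells resistant to 0.1 µM nilotinib gave nilotinib lines 1 and 2, and treatment-naive cells gave naive sets S and K, named for letters in their titles that the labels do not explain. Imatinib and nilotinib inhibit the fusion kinase on which K-562 cells depend, and the resistant lines were raised by stepwise increase of the drug. Every sample carries the same growth text, which names medium without either drug, so the presence of drug at harvest is unclear. Each line or set was run on 4 technical arrays, which were averaged and counted as 1 replicate. The design text gives each group 2 biological replicates with 4 technical arrays each. Nothing in the labels says that S and K, or 2 lines of a resistance, came from separate cultures. P-values measure the spread between the 2 sets within a group, pooled over the 4 groups, and this spread may be in part technical.

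Amino acid carriers sit in the plasma membrane and in the membranes of lysosomes and mitochondria. Members of the SLC38 family are known for moving neutral amino acids such as glutamine together with sodium, and proteins of the SLC7 family exchange larger neutral, cationic or acidic amino acids, several of them in a pair with a heavy chain of the SLC3 family. Growing leukemia cells draw amino acids through such carriers for protein synthesis. Supply is sensed by the kinase complex mTORC1 at the lysosome, and shortage raises the transcription factor ATF4. SLC38A12 was placed in the SLC38 family by its symbol; the labels and tables used here do not name the substrate it moves.

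The deposited levels are log2 intensities. As single features they allow a gene to be compared between sets, but not its RNA amount with that of another gene. Where genes are ranked by level below, the rank describes signal and not amount. Array medians lay between 5.85 and 6.11. Of 15 markers of the erythroid character of K-562, 5 were measured. All 5 were above 6.16, the level under which the dimmest 40% of genes lay. They averaged from 7.34 for TAL1 to 9.42 for GATA1, an erythroid transcription factor. Markers of other cells were not uniformly dim: 5 of 6 lymphoid, 2 of 7 monocyte and granulocyte, and 4 of 6 epithelial and fibroblast markers measured also lay above 6.16. Their means ran from 5.14 for IL7R to 7.30 for CD7 among lymphoid markers, from 5.62 for CD14 to 7.04 for LYZ among monocyte and granulocyte markers, and from 4.26 for DCN to 9.77 for KRT18 among epithelial and fibroblast markers. The mean over the 5 erythroid markers was 7.93 to 8.49 in resistant lines and 7.43 to 7.71 in naive sets. Over the 6 lymphoid markers measured it was 6.22 to 6.39 in resistant lines and 6.49 to 6.62 in naive sets. The 7 monocyte and granulocyte markers averaged 5.84 to 6.26 in resistant lines and 6.19 to 6.38 in naive sets, and the 6 epithelial and fibroblast markers 6.37 to 7.26 in resistant lines and 7.03 to 7.20 in naive sets. The part of these shifts in the results below was not tested.

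The promoter of SLC38A12 in the RefSeq table for GRCh38.p14, at chr17:74776249-74776548 on the plus strand, is shown because the transcript of the protein-coding gene of the pair starts there. It runs from 250 bases before the start of the gene to 50 after it, with the base pair CG in capitals:

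SLC38A12 promoter: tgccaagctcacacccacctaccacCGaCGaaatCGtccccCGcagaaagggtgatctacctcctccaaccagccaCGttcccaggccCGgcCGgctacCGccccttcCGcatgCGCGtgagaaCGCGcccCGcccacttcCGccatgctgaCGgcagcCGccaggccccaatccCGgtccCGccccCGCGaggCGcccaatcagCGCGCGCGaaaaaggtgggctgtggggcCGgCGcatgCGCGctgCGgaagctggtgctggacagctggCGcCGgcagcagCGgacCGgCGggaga

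This window of 300 bases held 36 CG pairs, against a median of 14 over 35116 promoters of the same length, and 71.3% of its bases were G or C. A search on both strands for TGATGNAAN, the core of the element bound by ATF4 in amino acid response genes, found 0 matches. The same letters occur in 3.61% of all promoters in the table. No other motif was searched, and a motif elsewhere in the gene was not looked for.

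SLC38A12 stood higher in all 6 resistant lines than in both naive sets. Its level averaged 7.68 ± 0.19 in low-imatinib line 1 and 8.19 ± 0.09 in low-imatinib line 2 (SD over 4 arrays, as for each set below). In high-imatinib lines 1 and 2 it was 8.18 ± 0.13 and 8.32 ± 0.07, and in nilotinib lines 1 and 2 it was 8.22 ± 0.08 and 7.87 ± 0.18. Naive sets S and K gave 7.47 ± 0.16 and 7.29 ± 0.19. Low-imatinib line 1 was the resistant line nearest to naive cells, and its arrays, from 7.46 to 7.92, overlapped those of naive S, from 7.28 to 7.64. They also overlapped those of naive K, which reached 7.54. Arrays of nilotinib line 2, which started at 7.63, overlapped those of naive S. The share of all genes with every resistant line above both naive sets was 17.0%, so such a separation is common on these arrays.

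**Figure D1:**
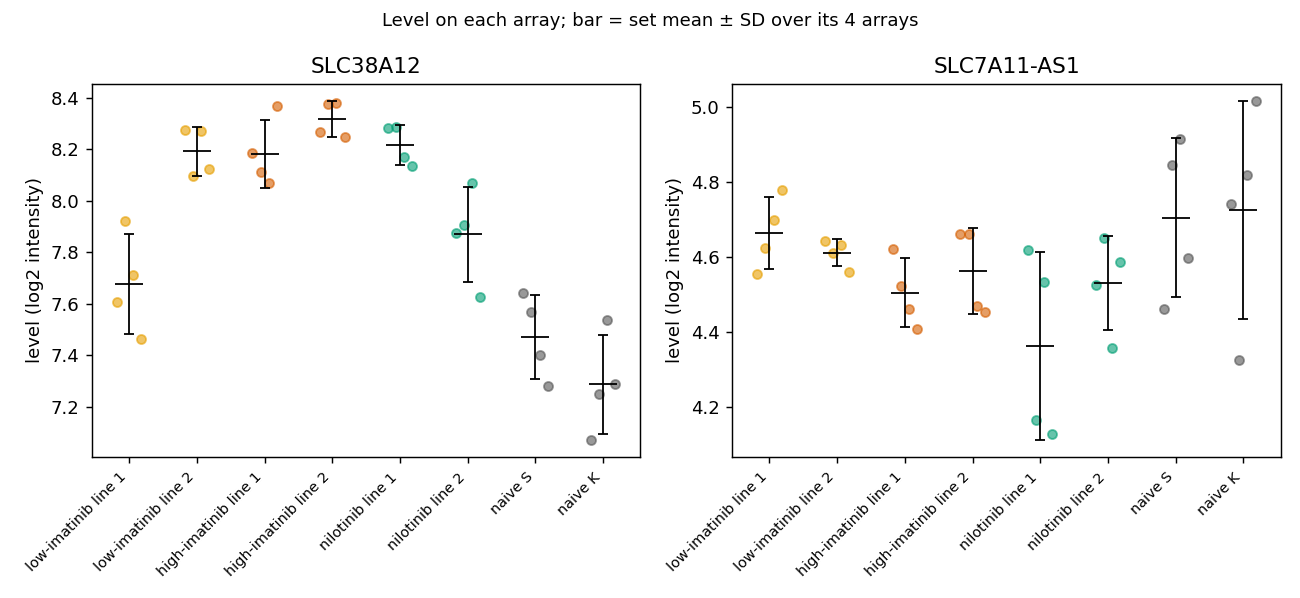
Level of SLC38A12 (left) and SLC7A11-AS1 (right) in log2 intensity, on separate axes that do not start at 0, with 1 point per array, by set; the bars give the mean and SD over the 4 arrays of a set. For SLC38A12 the resistant lines average 7.68 to 8.32 and the naive sets 7.29 and 7.47. For SLC7A11-AS1 the resistant lines average 4.36 to 4.66 and the naive sets 4.70 and 4.72. Single arrays of resistant and naive sets overlap for both genes.

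Ordered by level, SLC38A12 went up in the sequence naive K, naive S, low-imatinib line 1, nilotinib line 2, high-imatinib line 1, low-imatinib line 2, nilotinib line 1 and high-imatinib line 2. Arrays of every pair of neighbours in this order overlapped. The 4 highest sets lay within 0.14 of each other and took in both high-imatinib lines, low-imatinib line 2 and nilotinib line 1. With 2 lines per resistance, this order cannot show whether the level follows the drug or its dose.

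The average of all 6 resistant lines was set against that of both naive sets. This comparison tests an average and does not show that every line shares a change. SLC38A12 averaged 8.08 ± 0.25 in resistant lines (SD, n = 6) and 7.38 ± 0.13 in naive sets (SD, n = 2). The limma estimate was 0.70 ± 0.17 on the log2 scale (SE, 1.62-fold, 95% interval 0.29 to 1.10), which did not pass over all genes (adjusted p = 0.0661) although its unadjusted p was under 0.05, as in 29.8% of all genes. Of the 2 genes, 0 passed, against 3.72% of all genes. The change of SLC38A12 exceeded that of 93.3% of genes. It was 0.40 ± 0.16 after quantile normalization and 0.39 ± 0.16 (adjusted p = 0.336) with a technical axis taken out, which is the first principal component of how arrays deviate from their own set mean. Mean scores on that axis ran from -2.13 to 21.2 over the resistant lines and were -20.8 and -25.1 for the naive sets S and K.

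**Figure D2:**
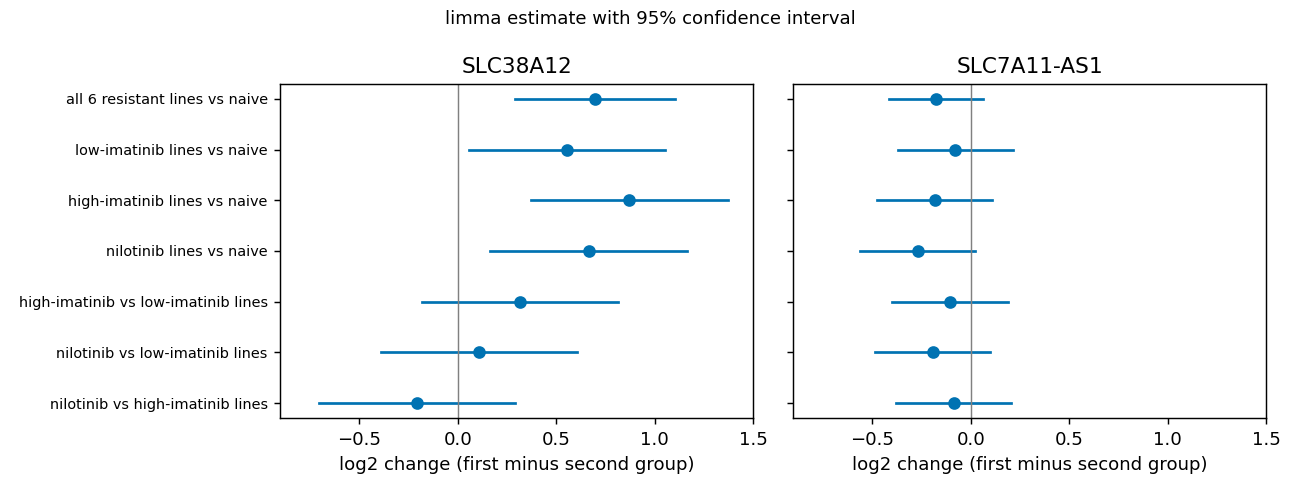
Estimated log2 change (points) with its 95% confidence interval (lines) for SLC38A12 and SLC7A11-AS1 in 7 comparisons, first group minus second. Intervals of SLC38A12 lie above 0 in the 4 comparisons with naive cells, before any adjustment for the number of genes, and those of SLC7A11-AS1 include 0 throughout.

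Against naive cells, the high-imatinib lines had the largest estimate of the 3 resistances for SLC38A12, 0.87 ± 0.21 (1.83-fold, interval 0.37 to 1.37, adjusted p = 0.156), with a mean of 8.25 ± 0.10 in high-imatinib lines and 7.38 ± 0.13 in naive sets (SD, n = 2 each). The nilotinib lines gave 0.66 ± 0.21 (1.58-fold, adjusted p = 0.0979), with a mean of 8.04 ± 0.25 in nilotinib lines. The low-imatinib lines gave 0.55 ± 0.21 (1.47-fold, adjusted p = 0.201), with a mean of 7.93 ± 0.36 in low-imatinib lines. In limma 0 of the 2 genes passed in each of these comparisons, against 0% of all genes for high imatinib, 0% for low imatinib and 0.443% for nilotinib. SLC38A12 had an unadjusted p under 0.05 in all of these comparisons and SLC7A11-AS1 in none. Such a p was common, with 15.2% of all genes for high imatinib, 21.6% for low imatinib and 31.9% for nilotinib. These comparisons share the naive sets, so their estimates are not independent of each other.

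The low-imatinib and nilotinib estimates depended on which line was kept. The low-imatinib estimate was 0.30 without line 2 and stood at 0.81 without line 1, and without nilotinib line 1 the nilotinib estimate was 0.49, against 0.84 without line 2. Low-imatinib line 2 lay 0.52 above line 1 with no overlap between their arrays, as in 22.1% of all genes, counted in either direction. Nilotinib line 2 lay 0.35 below line 1, also with no overlap, which 29.1% of genes showed. The high-imatinib lines differed by 0.14 with overlapping arrays (37.0% of genes did not overlap), and naive K lay 0.19 below naive S with overlap (10.6% did not overlap). These gaps are measured against technical spread between arrays and do not compare resistances.

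Between resistances, no difference in SLC38A12 was resolved. The high-imatinib lines exceeded the low-imatinib lines by 0.32 ± 0.21 (interval -0.18 to 0.82, adjusted p = 0.934). Nilotinib minus low imatinib gave 0.11 ± 0.21 (interval -0.39 to 0.61), and nilotinib minus high imatinib gave -0.21 ± 0.21 (interval -0.71 to 0.29). The share of all genes called by limma was 0% in each of these 3 comparisons, and both SLC genes had an unadjusted p above 0.05 in all of them. The intervals leave room for differences of over 1.5-fold, so equal levels were not shown.

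SLC7A11-AS1 gave a dim signal, with a mean level above that of 6.0% of genes, and it did not pass the filter on low values. It averaged 4.66 ± 0.10 and 4.61 ± 0.04 in low-imatinib lines 1 and 2. High-imatinib lines 1 and 2 gave 4.50 ± 0.09 and 4.56 ± 0.12, and nilotinib lines 1 and 2 gave 4.36 ± 0.25 and 4.53 ± 0.13. Naive S and K gave 4.70 ± 0.21 and 4.72 ± 0.29. All 6 lines were thus below both naive sets, as in 15.9% of all genes, but single arrays overlapped: those of naive K ran from 4.32 to 5.02. The estimate over all resistant lines was -0.18 ± 0.10 (interval -0.41 to 0.06, adjusted p = 0.269), and the nilotinib lines had the lowest value, -0.27 ± 0.12 (adjusted p = 0.180). Low imatinib gave -0.08 ± 0.12 and high imatinib -0.18 ± 0.12. No source used here states whether a feature reads 1 strand only, so signal from the opposite strand was not told apart.

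The nearest measured genes on chromosome 17, 5 on each side of SLC38A12 and taken by gene order alone, did not share its estimate. Over all resistant lines against naive they ranged from -0.34 for CD300E, a receptor of myeloid cells, to 0.09 for HID1, and 0 of 10 passed in limma (4 had an unadjusted p under 0.05, against 29.8% of all genes, and all 4 had estimates below 0). SLC38A12 had the highest estimate of these 11 positions. On chromosome 4 the 10 neighbours of SLC7A11-AS1 ranged from -0.47 for SETD7, a lysine methyltransferase, to 0.47 for SCLT1, a centriole protein; 0 of 10 passed in limma and 7 had an unadjusted p under 0.05.

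**Figure D3:**
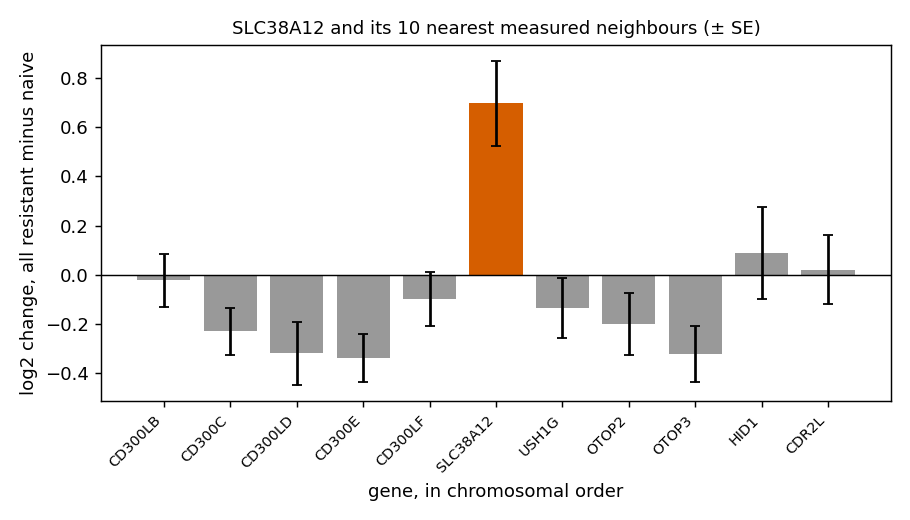
Log2 change over all resistant lines against naive cells, with its SE, for SLC38A12 (orange bar) and the 5 nearest measured genes on each side in chromosomal order. SLC38A12 stands at 0.70 and its neighbours between -0.34 and 0.09.

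By Pearson correlation over the 8 set means, the genes most like SLC38A12 were TADA3, a subunit of histone acetyltransferase complexes (r = 0.975), SEPSECS, an enzyme of selenocysteine synthesis (r = 0.973), ELMO2 (r = 0.972), GP6, a platelet collagen receptor (r = 0.971), and RNF4, a ubiquitin ligase (r = 0.958). This likeness rule was chosen after the values were seen. Both genes of a correlation were read on the same arrays, and the 8 sets include the gap between resistant and naive cells. In this ranking 76 genes exceeded an r of 0.9. For the dim SLC7A11-AS1 147 genes did, with CTXN3 highest (r = 0.994), so such values are not particular to SLC38A12.

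Carriers of amino acids from other families give a setting for SLC38A12, and 4 of 29 listed were measured, that is, found among the named features. SLC66A1, which exports cationic amino acids from lysosomes, stood at 7.50 and 7.79 in low-imatinib lines 1 and 2, at 8.11 and 7.85 in both lines of high imatinib, and at 7.61 and 7.53 in both lines of nilotinib, against 6.99 and 7.05 in naive S and K. It rose by 0.71 ± 0.13 over all resistant lines (adjusted p = 0.0400), close to the estimate for SLC38A12 but with a smaller error. After quantile normalization the limma estimate for SLC66A1 was 0.49 ± 0.13 and did not pass (adjusted p = 0.0892). SLC25A15, the mitochondrial carrier of ornithine, had 0.72 ± 0.21 (adjusted p = 0.0865), with high-imatinib line 1 at 6.02, near naive S at 6.0 and naive K at 5.85. SLC25A2, a second ornithine carrier, had 0.06 ± 0.10, and SLC66A2 0.06 ± 0.14.

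**Figure D4:**
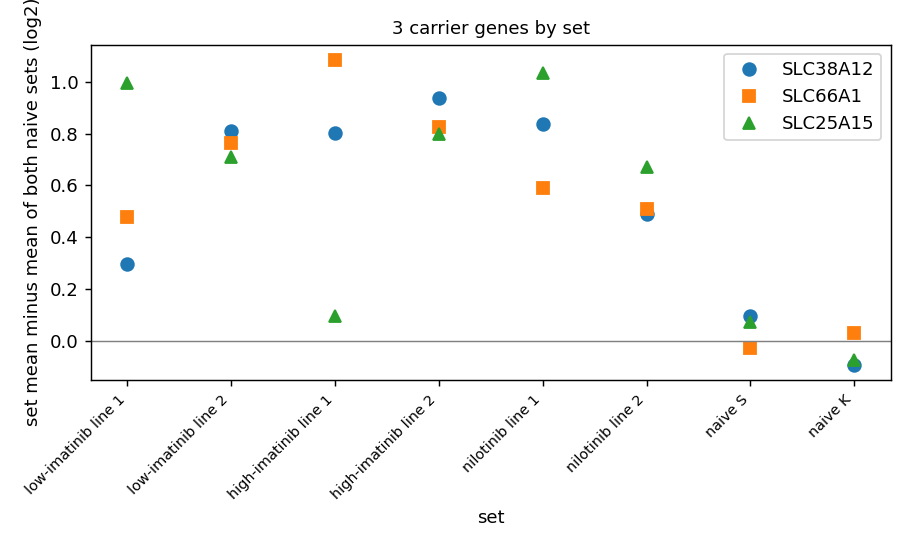
Level of SLC38A12, SLC66A1 and SLC25A15 in each set, as log2 difference of the set mean from the mean of both naive sets. Points of all 3 genes lie above 0 in every resistant line, with SLC25A15 near the naive sets in high-imatinib line 1.

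Genes that sense or use amino acids were read from the comparison of all resistant lines with naive cells, in which 3.21% of all genes were called higher and 0.504% lower. The lists were chosen with earlier results of these data known, so counts set against these shares are not a test of a list. In the mTORC1 nutrient sensing list, 4 of 28 measured genes rose and 0 fell (median 0.33, against -0.03 over all genes). They were KICS2 (0.82 ± 0.12), which anchors a brake on mTORC1 to the lysosome, SAR1A (0.74 ± 0.13), a small GTPase, and the sestrins SESN3 and SESN1. In the amino acid response list 0 of 19 rose and 2 fell, ATF5 and STC2, with a median of -0.38. In the cystine and glutathione list, 1 of 14 fell, GGT5, a glutamyltransferase (-0.52 ± 0.10, median of the list 0.19). None of 14 genes of glutamine and glutamate metabolism (median 0.06), 12 of serine and glycine synthesis (0.12) or 9 carrier partners (-0.05) passed in either direction. In the nilotinib lines only ATF5 of these lists passed, at -1.22 ± 0.18 (adjusted p = 0.0497), where 0.0537% of all genes were called lower. This call was lost under 15 of 19 alternatives, with adjusted p = 0.0520 with the line number as a replicate block and adjusted p = 0.162 without nilotinib line 1. SLC66A1 and the 7 genes of these lists that passed over all resistant lines lost their calls with the technical axis taken out and without naive S, naive K, either low-imatinib line or nilotinib line 1, each in turn.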

How the data were processed

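Expression was measured on 32 GeneChip arrays of total RNA. The authors deposited summarised intensities per feature that read as log2 values (1.24 to 14.2), with the base inferred from the range. Per the submitters' processing notes Transcriptome Analysis Console 4.0 was used. The normalization, background values and build are not given in the sources used here. Of 53617 features, 16098 carried 1 gene symbol, 0 several and 37519 were unnamed here; all 16098 identifiers matched the annotation of GRCh38.p14, used for names, gene order and promoter sequence.

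The feature with the highest mean represented each gene. After averaging 4 arrays per set, limma 3.58.1 (R 4.3.3) was fitted to the 8 averages, 1 mean per group, with 4 residual degrees of freedom, so errors pool the spread within all groups. P-values were adjusted by Benjamini-Hochberg over all 14884 genes, with a threshold of 0.05. The fit was tested on simulated data. The rule for naming genes gave every measured SLC gene and at most 3 passing genes per list and comparison; SESN1, beyond that limit, completes its list. Neighbours were taken by position. Members, lists and rules were chosen with earlier results of these data known. The number of sets, 2 per group, limits the precision. Deviations of equally numbered lines correlated at 0.14 between high and low imatinib and at 0.19 between nilotinib and low imatinib. Between nilotinib and high imatinib the correlation was negative, at -0.20. The numbers were therefore not taken to pair lines.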

Additional observations from a re-analysis of the deposited data

How the results depend on the processing

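The 2 SLC genes kept direction and side of the threshold in 252 of 259 recomputed estimates. Many of these estimates could not move, so this count does not measure stability. Each gene had 1 feature, so the mean of all features and the test of every feature repeated its estimate. Leaving out a set outside a comparison repeated it too. An intensity trend in limma and the line number as a replicate block changed only the error and the adjusted p. With all 32 arrays in the fit and the set as a random block, 1 gene, SLC38A12, passed in each of the 4 comparisons with naive cells (1, 1, 1 and 1 in place of 0; adjusted p = 2.74e-04 for all resistant lines), and 3660 genes passed in place of 553; that fit takes its degrees of freedom from arrays. No other alternative gave a call for either gene, and leaving out each set in turn gave 0 calls in all 7 comparisons. SLC38A12 in all resistant lines ranged from 0.39 to 0.79. Direction turned for SLC7A11-AS1 in the low-imatinib lines after quantile normalization (0.022) and for SLC38A12 in nilotinib minus low-imatinib lines without low-imatinib line 1 (-0.15) or nilotinib line 1 (-0.065; range -0.15 to 0.37 over sets left out); the cause was not tested. In low-imatinib and nilotinib lines, the estimate for SLC38A12 was 0.28 and 0.29 after quantile normalization, and 0.27 and 0.27 with the technical axis taken out. With the line number as a replicate block, 0 of the 2 genes passed in every comparison, and calls over all genes moved to 653 in place of 553 for all resistant lines and to 104 in place of 66 for nilotinib. With nilotinib and high-imatinib lines paired crosswise, chosen after seeing the data, 0 genes passed between them. Leaving out 1 set moved the calls over all genes between 0 and 1742 for all resistant lines and between 0 and 1187 for nilotinib; other alternatives moved them between 12 and 3660 and between 0 and 3696. SLC66A1, ATF5, STC2, GGT5, KICS2, SAR1A, SESN3 and SESN1 also lost their calls with every array feature tested and with an intensity trend in limma. After quantile normalization 5 of 8 kept them, and SLC66A1, SAR1A and SESN1 did not. A median over members was not run for 2 genes. Signal over background is unknown, which limits what SLC7A11-AS1 can show.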
